A study of Homo sapiens with 14 samples.

Results

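The resting transcriptome of Kasumi-1 cells was described from 5 of the 14 arrays of the study, 3 from cells given a control siRNA with a lipid reagent and 2 from untransfected cells. Kasumi-1 is a cell line established from human acute myeloid leukaemia with the t(8;21) translocation, which fuses AML1 (RUNX1) to ETO (RUNX1T1). The arrays were chosen by their labels alone: luciferase siRNA delivered with Biorad siLentFect (replicates 1 to 3), and no construct with no transfection (replicates 1 and 3). Untransfected replicate 2 was not analysed here. The lipid cultures received siRNA at 240 nM, with 500000 cells per well in 500 µl, and all 5 arrays were made from 10 µg of RNA taken at 96 h. The other 9 arrays held AML1-ETO siRNA by lipid (3) or by nucleofection, an electrical transfection (3), luciferase siRNA by nucleofection (2) and nucleofection without siRNA (1). All groups are the same single line and all carry the fusion. No group received the lipid reagent without siRNA, so that the effects of reagent, siRNA and handling cannot be told apart. Nothing in the labels tells whether the replicates are separate cultures, so p-values here speak of array-to-array spread, and that spread may be technical.

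The t(8;21) fusion joins the DNA-binding domain of a blood transcription factor to a corepressor, and leukaemias that carry it are usually blocked at a granulocytic progenitor stage. At that stage normal cells fill their azurophil granules with myeloperoxidase and serine proteases, still bear receptors of stem and progenitor cells such as KIT, and have not yet made the late granule proteins of neutrophils. Growing leukaemia cells take up iron and glucose and make nucleotides, lipids and ribosomes for division. A control siRNA has no intended human target, but cationic lipid and double-stranded RNA can engage innate sensors and interferon genes, which is why an untransfected group is a useful companion to it.

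The control siRNA is printed here because it is the agent that the transfected cells received and the untransfected cells did not. Its strands, as the labels give them without the dTdT overhangs, have 19 bases each, and capitals mark the seed of the antisense strand, bases 2 to 8 from its 5′ end.
sense strand: cguacgcggaauacuucga
antisense strand: uCGAAGUAuucggcguacg
As given, the antisense strand differs from the exact reverse complement of the sense strand at 1 of 19 bases, written C12G with positions counted from the antisense 5′ end (the base of the reverse complement first). The labels do not say which form was intended.

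Each array gave 1 MAS5 intensity, here called the signal, for each of 22283 probe sets, and every array had the same mean of 138.5. Signals below a floor of 20 were raised to 20 before log2 was taken. Such signals made up 40% to 43% of the probe sets on the lipid arrays and 44.3% and 42.5% on the untransfected arrays. The number of arrays limits the precision. The log2 ratio of the 3′ to the 5′ control probe sets was -0.30 to -0.26 for GAPDH with lipid and -0.21 and -0.19 without transfection, and 0.30 to 0.38 against 0.50 and 0.66 for ACTB. Both measures of the RNA thus separated the groups, and their part in the differences given further on was not tested. The 5 arrays were close to each other. Over all probe sets tested, the median absolute log2 difference was 0.198 to 0.229 for the 6 pairs of a lipid and an untransfected array. It was 0.190 to 0.231 for the 3 pairs of lipid arrays and 0.227 for the pair of untransfected arrays, so that pairs across groups lay in the range of pairs within a group.

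Of 11963 genes with a probe set of their own, each taken at its brightest probe set, 6744 (56.4%) lay over the floor on all 5 arrays and 2871 (24.0%) at or under it on all 5. A further 2348 were over it on some arrays. A signal of 1000 or more on all 5 arrays was reached by 228 genes (1.91%), which are called bright below. A probe set's signal depends on its probes as well as on its transcript, so that the order of signals is not an order of amounts, and a signal under the floor is a bound and not a proof that the transcript is missing. Levels were stable: among 3231 genes with a geometric mean of at least 100, the median ratio of the highest to the lowest of the 5 arrays was 1.30, and 44 genes had a ratio of 2 or more.

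The 15 genes with the highest signals were mostly parts of the translation machinery. They held 8 ribosomal protein genes, RPS10 (8393 to 10153 over the 5 arrays), RPL41, RPS23, RPL37A, RPL8, RPS18, RPS19 and RPL32, together with the elongation factor EEF1A1 (6629 to 9291). The others were TPT1, a translationally controlled protein, the peptidyl-prolyl isomerase PPIA, ACTB, the glycolytic enzyme GAPDH, the ferritin light chain FTL and the ubiquitin ligase HUWE1. The HUWE1 entry rests on 1 probe set, 207783_x_at, with signals of 7052 to 7965. Its other 3 probe sets read 593 to 663, or under the floor on all 5 arrays, so that they disagree and the bright one cannot be taken as the level of HUWE1. Of the 228 bright genes, 49 had an RPL or RPS symbol, and 37 of 38 listed cytosolic ribosomal proteins were bright.

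The 3 lineage genes with the highest signals, MPO, ELANE and PRTN3, code for azurophil granule proteins. Of 13 measured granule genes, 6 were bright (46.2%, against 1.91% of all genes) and 11 were over the floor on all 5 arrays. Myeloperoxidase, MPO, which makes hypochlorous acid, gave 6632, 5778 and 5693 on the lipid arrays and 5983 and 7062 on the untransfected arrays. The neutrophil elastase gene ELANE gave 5392, 4532 and 3909.9 with lipid and 5592 and 5309.7 without transfection. Its neighbour in the granule, proteinase 3 (PRTN3), gave 3401, 2892 and 2549 with lipid and 3115 and 3399.9 without transfection. The groups overlapped for each of these 3 genes.

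The tetraspanin CD63, a membrane protein of these granules, read 1212 to 1439.6. Azurocidin (AZU1), an antimicrobial protein related to elastase, read 1079.5 to 1629, and cathepsin G (CTSG) 1114 to 1731. The proteoglycan serglycin (SRGN), which packs proteases into granules, passed 1000 on 3 of the 5 arrays, with a range of 809.7 to 1221. Cathepsin C (CTSC), which activates the granule proteases, read 542 to 665, the ribonuclease RNASE2 429.7 to 527 and lysozyme (LYZ) 398 to 541. The protease inhibitor CST7 was dim at 36.1 to 55.9. MS4A3, a membrane protein of granulocyte progenitors, was the granule list's member under the floor on all 5 arrays.

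**Figure D1:**
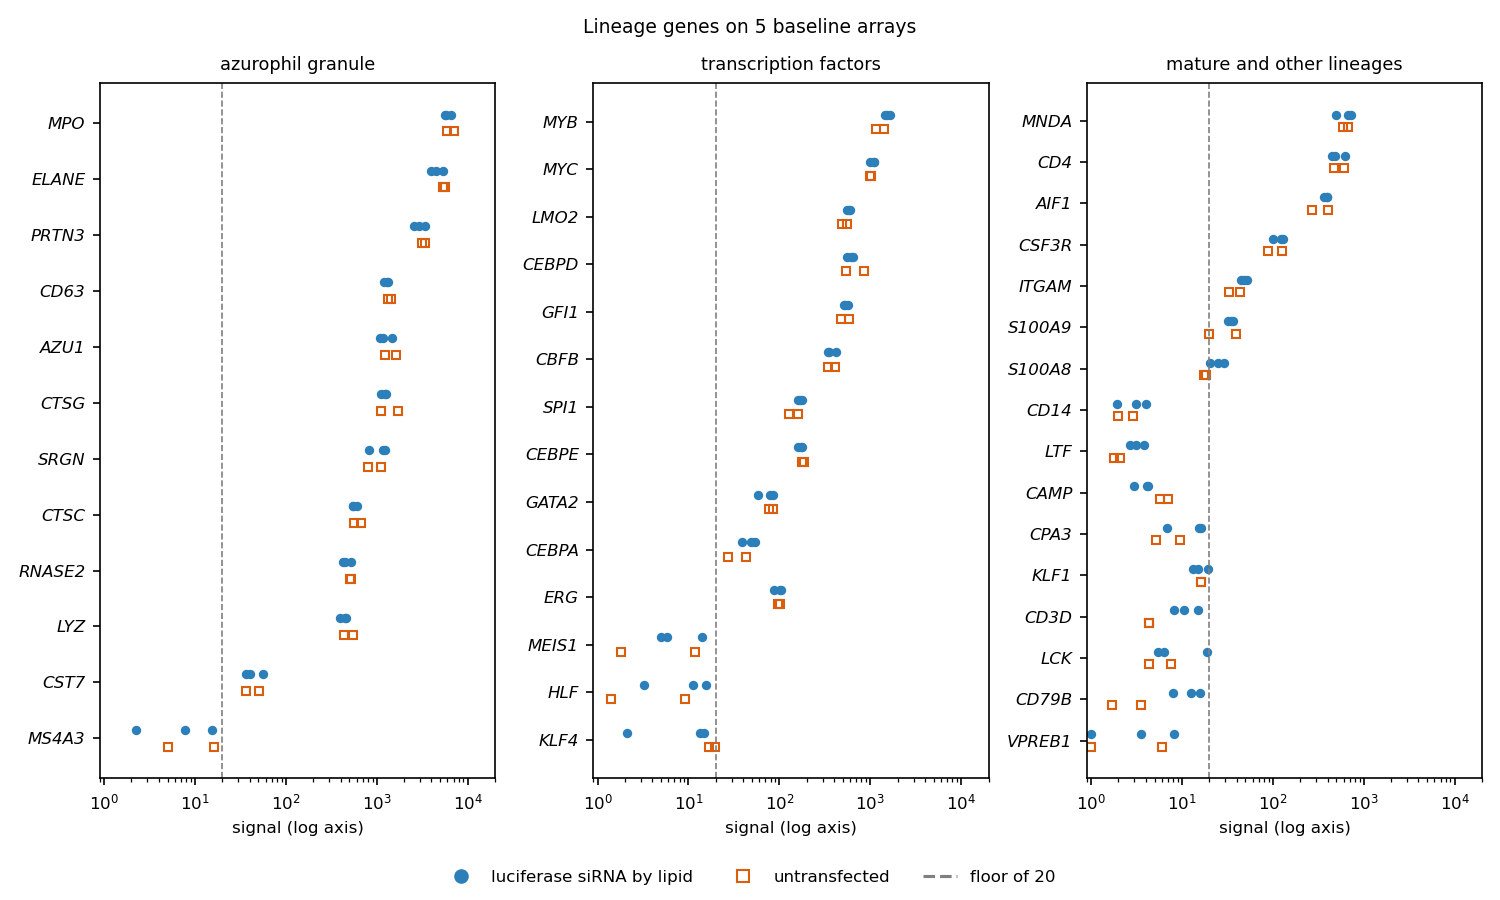
Signals of lineage genes on the 5 arrays, on a log axis, each gene at its brightest probe set. Filled circles are the 3 lipid arrays, open squares the 2 untransfected arrays, the dashed line is the floor of 20, and signals below 1 are drawn at 1. The granule genes from MPO down to LYZ sit far to the right of the floor, while CD14, LTF, CAMP, CD3D and CD79B lie to its left in both groups.

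The promoters of the granule genes were looked at because several of these genes were bright. RefSeq's table (GRCh38.p14, 250 bases before to 50 after each start) held 7 of the 13 granule genes. MPO and ELANE, the 2 brightest granule genes, are not among the 7, while MS4A3, under the floor on all 5 arrays, is. The median was 9 CpG pairs in 300 bases, with 3 to 9 in 5 of the promoters, 25 in that of CTSC and 36 in that of CD63. The median was 25 for the 195 bright genes in the table, 24 for the 9563 genes of the array, 15 for the 2114 genes under the floor and 14 for all 27305 promoters. The letters GAGGAA, the core bound by the myeloid factor PU.1 (SPI1), were searched on both strands and occurred in 4 of the 7 (PRTN3, CTSG, CD63 and MS4A3), beside 27.6% of all promoters in the table and 17 of 34 ribosomal protein promoters. The letters TGTGGT, the core bound by RUNX factors, were in 0 of the 7 and in 13.1% of all promoters. With letters this short a match is a description, not a site. The 120 bases before the start of PRTN3 (chr19:840879-840998, plus strand) and of CTSG (chr14:24576251-24576370, minus strand) are shown 5′ to 3′ as the members with matches ahead of the start, with GAGGAA or its reverse complement TTCCTC in capitals.
PRTN3: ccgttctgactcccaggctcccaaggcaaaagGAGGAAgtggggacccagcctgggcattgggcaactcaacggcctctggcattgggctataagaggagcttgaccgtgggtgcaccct
CTSG: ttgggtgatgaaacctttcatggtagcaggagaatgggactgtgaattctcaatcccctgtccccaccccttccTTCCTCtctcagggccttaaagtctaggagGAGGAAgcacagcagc
The match in PRTN3 begins at base -88, and those in CTSG at -46 and -16.

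The composition of promoters over the whole array is given as a description, with no test. The median number of CpG pairs was 27 in the 5457 genes over the floor on all 5 arrays but not bright, and 15 in those under it. The letters TATAAA were in 5.81% of the former and 13.6% of the latter, and in 10.3% of the bright genes. The shares for the PU.1 core were closer, 27.1%, 30.1% and 32.8%.

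The stem and progenitor genes gave a mixed picture. The receptor tyrosine kinase KIT, which binds stem cell factor, gave 1996, 2030.5 and 2102 on the lipid arrays and 2297 and 2051 on the untransfected arrays, with overlapping groups. CD34, the classical surface mark of progenitors, was dim but steady at 69.9 to 79.5, and CD99 read 767 to 937, CD47 162 to 201 and CD93 129 to 178. IL1RAP, a coreceptor for interleukin 1, read 54.1 to 129, and both extremes were untransfected arrays. Of 17 measured surface genes 12 were over the floor on all 5 arrays, and 4 were at or under it: ADGRG1, CD96, PROM1 and TEK.

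Among the transcription factors of stem and progenitor cells, MYB gave 1658, 1543 and 1472 on the lipid arrays and 1433 and 1146 on the untransfected arrays. MYC, which drives growth genes, read 982 to 1106, LMO2 492 to 599, HHEX 359 to 432 and LYL1 341 to 418. Of 19 measured factors 11 were over the floor on all 5 arrays. At or under it on all 5 were MEIS1, HLF, PBX3, MYCN, BAALC and SPINK2, of which MEIS1 and PBX3 are cofactors of HOX proteins. HOXA9, HOXA10 and HOXB4 were not analysed here.

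The factors of the granulocytic branch gave moderate signals. CEBPD read 541 to 859, GFI1, a repressor needed for neutrophil development, 472 to 586, CBFB, the partner of RUNX proteins, 342 to 419.7, STAT3 275 to 373 and CEBPE 162 to 187. PU.1 (SPI1) gave 159, 168 and 176 with lipid and 128 and 162 without transfection. CEBPA, the master factor of granulocytic commitment, was dim at 27.1 to 54.0. Of 18 measured myeloid factors 14 were over the floor on all 5 arrays, while KLF4, which favours monocytes, and NFE2 were at or under it.

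Genes of the finished neutrophil were mostly dim or under the floor. Of 22 measured, 0 were bright, 4 were over the floor on all 5 arrays and 9 were at or under it. The latter included LTF and CAMP, contents of the later granules, the chemokine receptors CXCR1 and CXCR2, and ALPL, CEACAM8, MME, OLFM4 and PGLYRP1. The G-CSF receptor CSF3R was the highest member (88.0 to 129.5), followed by MMP9 (41.1 to 74.0), CEACAM6 (31.2 to 56.3), ITGAM (33.1 to 51.6) and S100A9 (19.8 to 39.0).

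The monocyte and macrophage list was split in the same way. MNDA, a nuclear protein of myeloid cells, read 491 to 716, CD4 451 to 616, AIF1 269.8 to 408, FCER1G 69.0 to 101 and LST1 65.1 to 82.5. By contrast CD14, the lipopolysaccharide coreceptor that defines monocytes, was under the floor, as were FCGR1A, ITGAX, CX3CR1, MARCO, MSR1, C1QA and C1QB. In all, 7 of 23 were over the floor on all 5 arrays and 8 at or under it.

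Other blood lineages left little signal. Of 24 T and NK cell genes 4 were over the floor on all 5 arrays and 11 at or under it, among them CD3D, CD3G, CD5, CD7, GZMA, GZMB, LCK and ZAP70. The highest, CD8A, reached 46.0 to 58.9, CD3E 30.9 to 77.1. Of 16 B cell genes 4 were over the floor on all 5 arrays and 7 at or under it, including CD79B, POU2AF1, IGLL1 and VPREB1. The highest was CD37 (479.6 to 624), a tetraspanin that myeloid cells also carry.

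Of 13 mast cell, eosinophil and basophil genes, CTSG, which is shared with the granule list, was the single one over the floor on all 5 arrays. CPA3, ENPP3, FCER1A and PRG2 were at or under it. Of 21 erythroid and megakaryocytic genes 7 were over the floor on all 5 arrays and 7 were at or under it (ALAS2, EPB42, HBZ, KLF1, PPBP, SLC4A1 and TUBB1). The erythropoietin receptor EPOR led this list at 304 to 436, but through probe set 396_f_at alone. Its other 4 probe sets read 56.2 or less on all 5 arrays, so that the probe sets disagree. Of 25 genes of cells outside the blood 11 were at or under the floor, among them ALB, INS, GFAP, CDH1 and KRT19, and EPCAM, an epithelial adhesion protein, was the highest at 194 to 267.

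Genes that mark t(8;21) leukaemia were over the floor in part. RUNX1T1, the ETO part of the fusion, which blood cells normally express little of, gave 539.7, 560.3 and 567 on the lipid arrays and 619 and 514 on the untransfected arrays at its brightest of 4 probe sets. The groups overlapped, and all 5 arrays were far over the floor. IGFBP7 read 227 to 371 and POU4F1, a neural factor found in these leukaemias, 40.4 to 99.1. TRH, CAV1 and BAALC were at or under the floor on all 5 arrays, and 8 of 12 genes were over it.

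**Figure D2:**
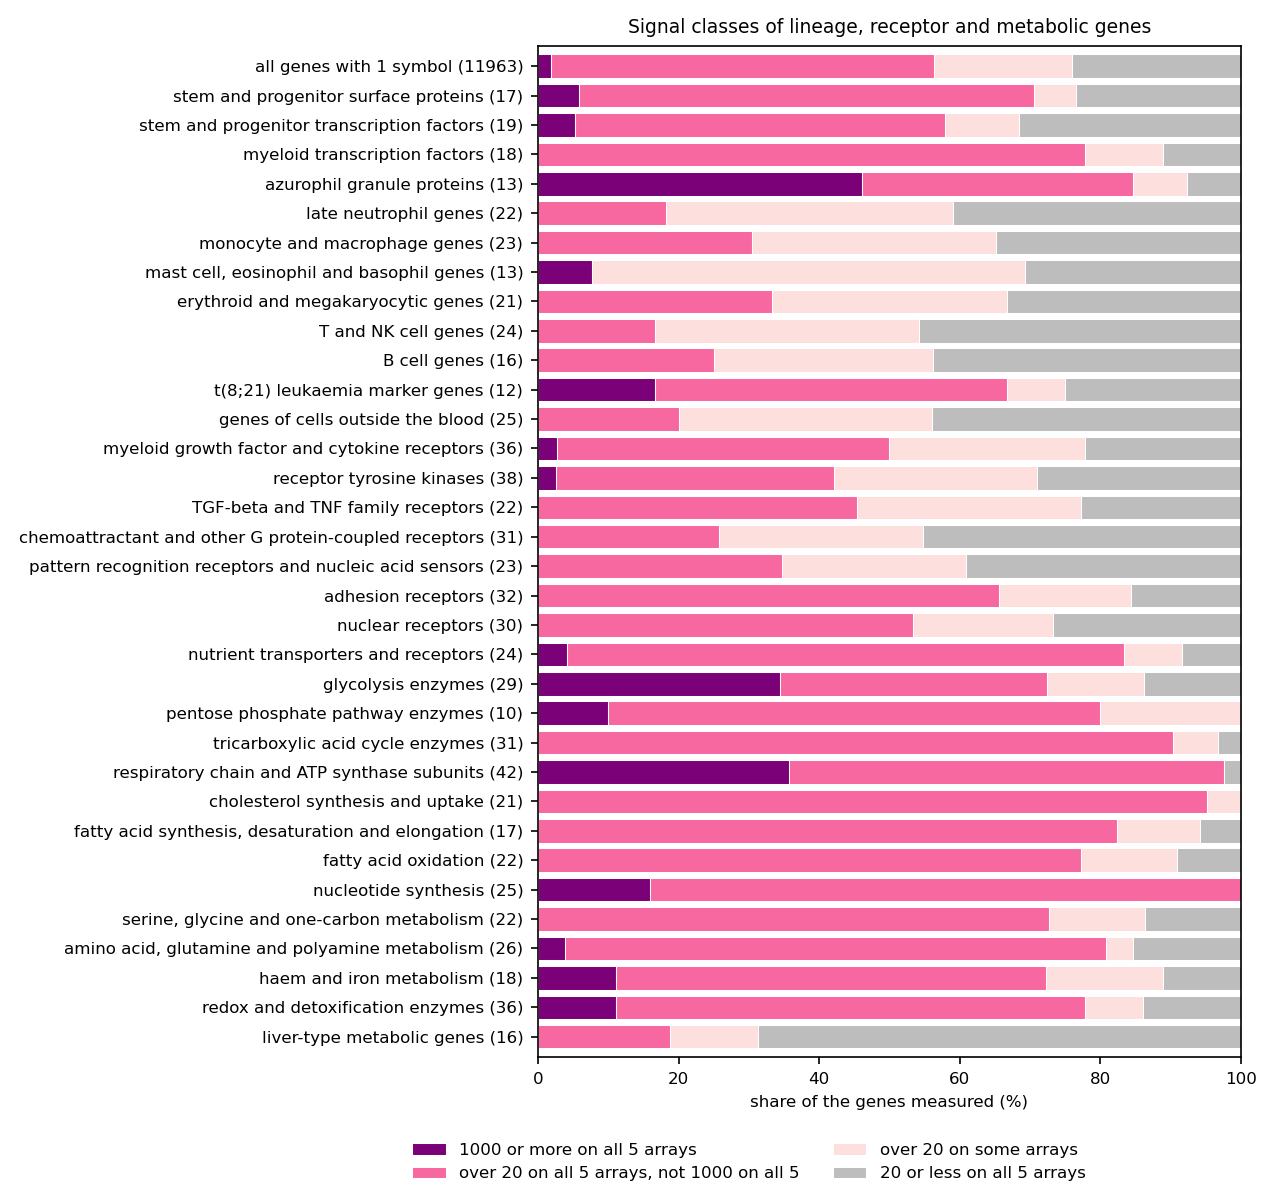
Share of each lineage, receptor and metabolic list in 4 signal classes over the 5 arrays, with the number of genes measured in brackets; the x axis is the percentage of those genes. All nucleotide synthesis genes lie over the floor, 46.2% of the granule genes are bright, and most liver-type genes lie at or under the floor.

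Across 8 lists, 232 receptor genes were measured. Of these 2 were bright (0.862%) and 62 were at or under the floor on all 5 arrays (26.7%), beside 1.91% and 24.0% of all genes, so that the share under the floor was near that of the array. The bright ones were KIT, described above, and the transferrin receptor TFRC, which imports iron, with 2093, 2089 and 2017 on the lipid arrays and 2013 and 2272 on the untransfected arrays. The groups overlapped for both.

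Among growth factor and cytokine receptors, 18 of 36 were over the floor on all 5 arrays. The shared gamma chain IL2RG read 232 to 271, IFNGR2 204 to 249.3 and CSF3R 88.0 to 129.5. Receptors for GM-CSF and interleukin 3 were weak: the common beta chain CSF2RB read 86.3 to 118, the GM-CSF alpha chain CSF2RA 22.1 to 36.1, and the interleukin 3 alpha chain IL3RA was under the floor on all 5 arrays. Also at or under it were IFNAR1, IL12RB1, IL18R1, IL1R1, IL1R2, LIFR and OSMR.

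The second receptor tyrosine kinase by signal was RET, the receptor of the glial-derived neurotrophic factors. It gave 971, 817 and 853 on the lipid arrays and 854 and 849 on the untransfected arrays, and its other 2 probe sets also lay far over the floor, at 457 to 666 on the lipid arrays. IGF1R read 165 to 232, RYK 155 to 186 and EPHB4 71.1 to 89.1, while FLT3, which is often active in leukaemia, read 29.1 to 52.6. Of 38 kinases 11 were at or under the floor: ALK, AXL, FGFR3, FLT4, KDR, PDGFRA, PDGFRB, ROR1, ROR2, TEK and TIE1.

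The TNF receptor TNFRSF1A led the TGF-beta and TNF families with 471, 593 and 794 with lipid and 784 and 726 without transfection. TGFBR2 (177.1 to 257), ACVR2B (107 to 202), CD40 (117 to 169.9) and ACVR1B (101 to 139) followed, and NGFR, TGFBR3, TNFRSF4, TNFRSF11A and TNFRSF17 were at or under the floor. Of the 8 receptor lists, chemoattractant and other G protein-coupled receptors had the largest share at or under the floor, 14 of 31. The complement receptor C3AR1 read 237 to 284 and CXCR4, which holds progenitors in the marrow, 158 to 186, whereas C5AR1, S1PR1, CX3CR1, CXCR5, CXCR6 and CCR6 were among those under it.

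Innate sensing was thinly covered. The adaptor MYD88 gave 395, 473 and 469 with lipid and 448 and 331 without transfection. NOD1 read 103 to 130.4, TLR2 78.8 to 109 and the RNA-activated kinase EIF2AK2 82.1 to 101. Under the floor on all 5 arrays were TLR7 and TLR8, the endosomal sensors of single-stranded RNA, RIGI and IFIH1, the cytosolic sensors of double-stranded RNA, and TLR1, NOD2, NLRP3, CLEC7A and ZBP1. That makes 9 of 23 measured, with 8 over the floor on all 5.

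Of the adhesion receptors 21 of 32 were over the floor on all 5 arrays. They were led by ITGB1 (482 to 592), CD53 (251 to 355), CD44 (208 to 344), ITGA5 (226 to 296) and CD24 (224 to 321), while CD9, ITGA3, ITGAX, ITGB7 and SELE were at or under it. Of 30 nuclear receptors 16 were over the floor on all 5 arrays. The glucocorticoid receptor NR3C1 read 158 to 228, ESRRA 165 to 190.1, and the retinoid X receptors RXRB 117 to 137 and RXRA 76.0 to 103. PPARG, PPARD, AHR, RORA, RARG, PGR, NR2F1 and NR3C2 were at or under the floor.

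Nutrient transporters were mostly over the floor, 20 of 24 on all 5 arrays. The amino acid transporters SLC38A2 (675 to 880.2), SLC38A1 (319 to 437) and SLC7A1 (215 to 266) and the nucleoside transporter SLC29A1 (293 to 360.5) came after TFRC. Of the glucose transporters, SLC2A1 read 91.5 to 160.2 and SLC2A3 16.0 to 34.2, and the liver form SLC2A2 was at or under the floor, as was the fatty acid receptor CD36.

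Metabolic genes were the fullest of the 3 classes. Across 13 lists, 311 genes were measured, 37 were bright and 34 were at or under the floor on all 5 arrays. Glycolysis had 10 bright enzymes of 29. GAPDH gave 6922, 5956 and 5686 on the lipid arrays and 6161 and 7189 on the untransfected arrays, and LDHB, the heart form of lactate dehydrogenase, gave 3653, 3512 and 3609.7 with lipid and 3704 and 3929 without transfection. ENO1 read 2383 to 3239.7, TPI1 2066 to 2502 and LDHA 1779.6 to 2028, and PGK1, PKM, ALDOA, PGAM1 and GPI were bright too.

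Some enzymes had 1 form over the floor and another under it, examples chosen after their values were seen. Hexokinases HK1 and HK2 were over it on all 5 arrays and HK3 under it. ENO1 was over and the neuronal ENO2 under, PGAM1 over and the muscle form PGAM2 under, and PKM over and the liver and red cell form PKLR under. Examples outside glycolysis were MAT2A over and the liver form MAT1A under, ALAS1 over and the erythroid ALAS2 under, ARG2 over and the liver form ARG1 under, and COX7A2 over and the muscle form COX7A1 under. This did not hold for every step: LDHA and LDHB were both bright.

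**Figure D3:**
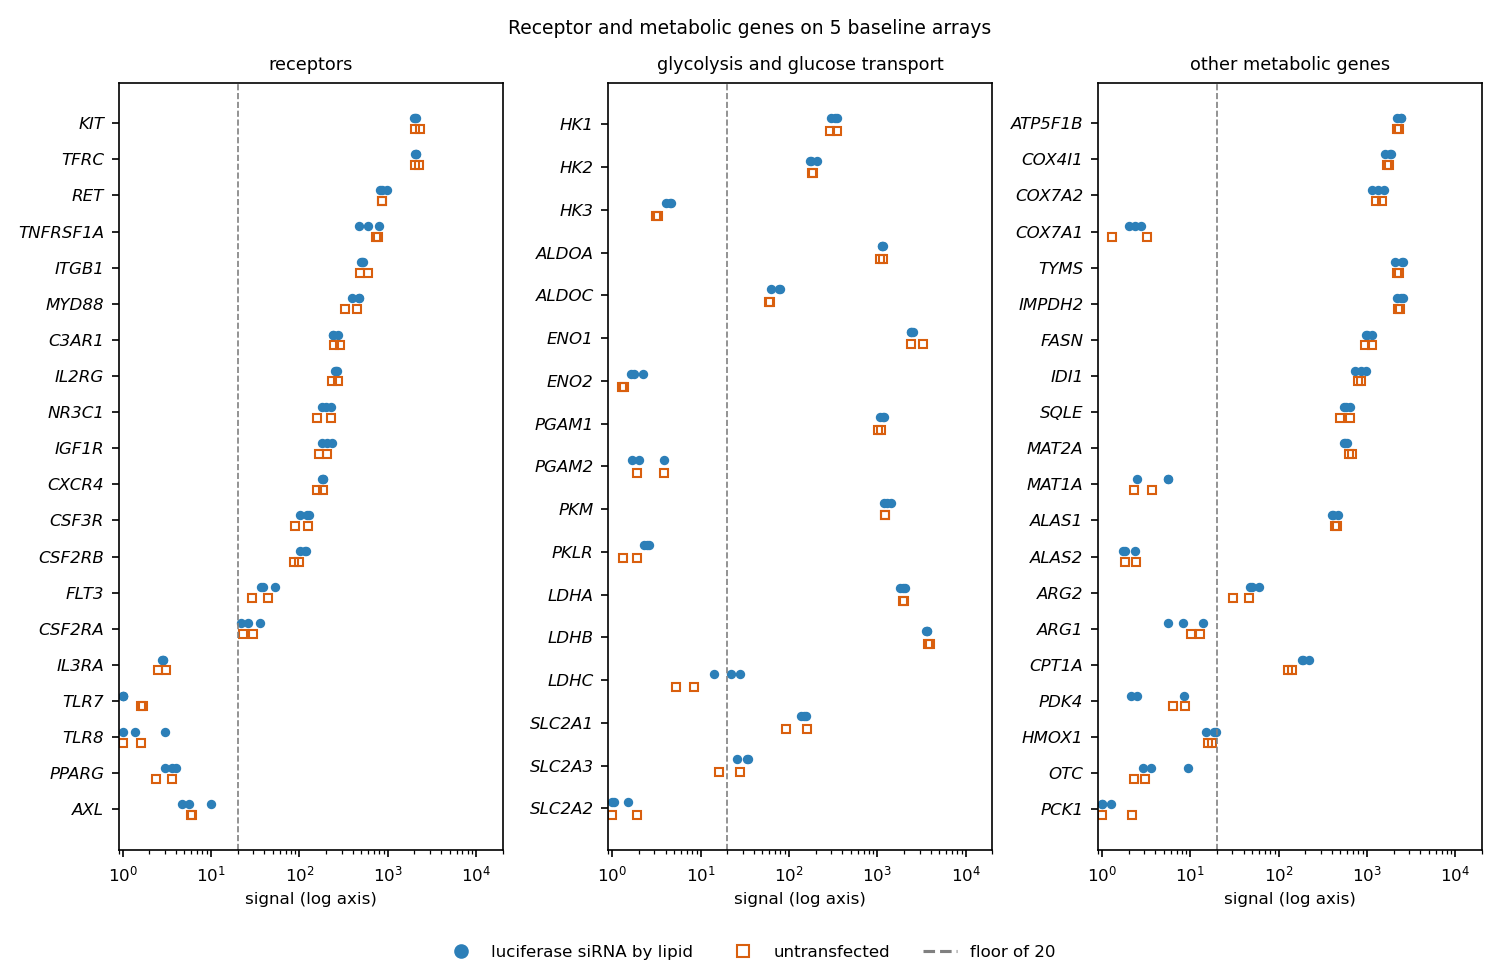
Signals of receptor, glycolytic and other metabolic genes on the 5 arrays, on a log axis, drawn as in the plot of lineage genes, with signals below 1 at 1. HK3, ENO2, PGAM2 and PKLR lie left of the floor of 20 and their partners right of it, and circles and squares of a gene lie close together.

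The respiratory chain and ATP synthase list had 15 bright genes of 42, and 41 over the floor on all 5 arrays. The catalytic ATP synthase subunit ATP5F1B gave 2431, 2395 and 2203 with lipid and 2282 and 2159.5 without transfection. ATP5F1A (2083 to 2284), COX6A1 (1657 to 2229), cytochrome c (CYCS, 1655 to 2105) and COX6C (1719.7 to 2041) were next. In the tricarboxylic acid cycle and its entry 28 of 31 genes were over the floor and 0 were bright. The malate dehydrogenases MDH1 (900.3 to 1047) and MDH2 (784 to 1279.9), IDH2 (784 to 899), ACLY (532 to 747) and citrate synthase (CS, 538 to 609.8) led, and the fasting-induced kinase PDK4 was at or under the floor.

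All 25 nucleotide synthesis genes were over the floor on all 5 arrays. IMPDH2, which commits purines to guanine nucleotides, gave 2204, 2396 and 2576 with lipid and 2387 and 2226 without transfection, and thymidylate synthase (TYMS) 2093, 2483 and 2574 with lipid and 2319.7 and 2168 without transfection. NME1 (1556 to 1726), PAICS (1564 to 1672) and DUT (852 to 1035) came next. In the pentose phosphate pathway, which supplies ribose, 8 of 10 genes were over the floor and transketolase (TKT) was bright (1730.4 to 1988), followed by TALDO1 (853 to 1024) and PGD (812 to 894).

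Most genes of lipid synthesis were likewise over the floor. Of 21 cholesterol genes 20 were over the floor on all 5 arrays, led by IDI1 (733 to 963), squalene epoxidase (SQLE, 501 to 649), EBP (387 to 442), INSIG1 (309 to 379.7) and DHCR7 (285 to 325). Fatty acid synthase (FASN) gave 1010.0, 983 and 1143 with lipid and 939 and 1132 without transfection, the desaturase SCD 479 to 777, ELOVL5 333 to 389 and FADS2 236 to 446. Of 22 fatty acid oxidation genes 17 were over the floor, with ECHS1 (551 to 664), HADHB (444 to 574) and HADHA (352 to 611) at the top and ACADL and ACADSB at or under it.

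In amino acid and polyamine metabolism the polyamine enzyme ODC1 was bright (1044 to 1227), followed by glutamine synthetase (GLUL, 633 to 906) and spermidine synthase (SRM, 654 to 732), while ARG1, GPT, HPD and PRODH were at or under the floor. One-carbon metabolism was led by MAT2A (550.3 to 676), AHCY (455 to 539), MAT2B (375 to 453), SHMT2 (345 to 423) and MTHFD2 (288 to 362), with GLDC, GNMT and MAT1A at or under the floor. Of the iron and haem genes, FTL gave 6021, 6641 and 6248 with lipid and 6608 and 7016 without transfection, ALAS1 read 403 to 469, and HMOX1, which breaks down haem under stress, was at or under the floor on all 5 arrays.

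The redox enzymes had 4 bright members of 36 measured, SOD1 (1782 to 2117), PRDX1 (1644 to 1718), GPX1 (1315 to 1363) and catalase (CAT, 1089.9 to 1406). Thioredoxin (TXN) read 949.7 to 1213, with 1 lipid array just under 1000. ADH1A, AKR1C3, ALDH1A1, EPHX2 and GSTT1 were at or under the floor. Of 16 liver-type metabolic genes 11 were at or under the floor, among them G6PC1, PCK1, CYP7A1, OTC and FABP1. A further 3 were over it on all 5 arrays. Among them was SERPINA1, the elastase inhibitor that myeloid cells also make, with 613, 701 and 764 with lipid and 595 and 683 without transfection.

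The comparison of the 3 lipid arrays with the 2 untransfected arrays asked what the control siRNA, the reagent and the handling did to these levels after 96 h. Nearly nothing passed the test. In a limma fit of all 14 arrays as 6 group means, 1 of 13329 probe sets tested was called at an adjusted p below 0.05 (0.0075%). It was higher with lipid, and 0 were called lower (0.0%). No lineage, receptor or metabolic gene described above was among the calls. In cultures such as these, fewer cells of a type and less RNA per cell cannot be told apart.

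The call was probe set 208871_at of ATN1, atrophin-1, a nuclear corepressor best known for the repeat expansion behind a hereditary ataxia. Its signal was 59.3, 69.2 and 58.7 on the lipid arrays and 16.7 and 18.0 on the untransfected arrays. All lipid arrays were over the floor and both untransfected arrays under it, so the groups did not overlap and the difference is a bound. The lipid group was at least 3.11-fold higher, a log2 difference of at least 1.64 (SE 0.16), with a limma adjusted p of 0.00199. The signal is low, and on 8 of the 14 arrays it was raised to the floor, where the spread is set to 0. Probe sets were tested if their geometric mean over the 14 arrays was at least 22.5. This one passed that filter through the lipid arrays alone, the arrays on which it is high, so that its p-value is not that of an ordinary test. The call was lost without untransfected replicate 1 (adjusted p = 0.0771), in a limma fit of the 5 arrays alone (adjusted p = 0.585) and with a floor of 64, under which most of the signals fall (log2 difference 0.04).

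The other arrays and probe sets bear on this call. With AML1-ETO siRNA by lipid the same probe set read 40.6, 42.6 and 52.7, a log2 difference from the same untransfected arrays of at least 1.17 (limma adjusted p = 0.0170). On all 6 nucleofection arrays it was between 3.46 and 15.4. Against the luciferase nucleofection group, the same lipid arrays gave the same bound of 1.64 on the log2 scale (limma adjusted p = 0.000331). Both reference groups were under the floor and entered the fit as 20, so that this is not a second test of the call. The signal was over the floor on all 6 lipid arrays and on 0 of the 8 others. The other 2 ATN1 probe sets did not share the pattern: 40489_at gave 149.5, 160.3 and 184 on the lipid arrays and 146 and 167 on the untransfected arrays, a log2 difference of 0.07, and 211076_x_at a difference of 0.11, both with overlapping groups.

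**Figure D4:**
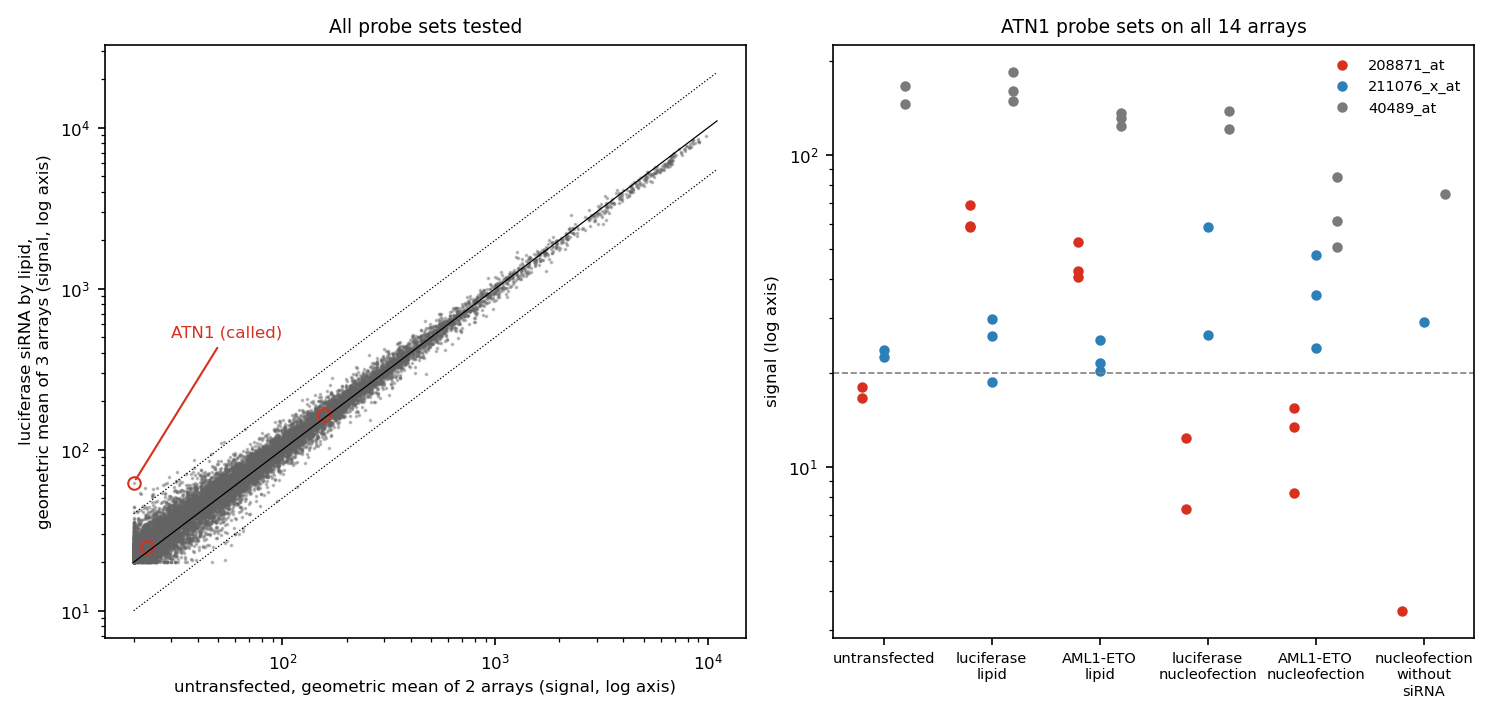
Left, geometric mean signals of all 13329 probe sets tested in the lipid group against the untransfected group, floored at 20, both axes log, with the line of equality and dotted lines at 2-fold; circles mark the 3 ATN1 probe sets. Right, their signals on all 14 arrays by group, log axis, with the floor dashed: 208871_at is over it on the 6 lipid arrays alone, while 40489_at lies above it in every group.

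Over all probe sets, the median half-width of the 95% interval of a difference was 0.495 on the log2 scale, or 1.41-fold. For the 4892 with a geometric mean of at least 100 over the 5 arrays it was 0.415, or 1.33-fold. These intervals are not adjusted for the number of tests. To be the single call among 13329, a probe set of median error would have needed a log2 difference of 1.75, or 3.35-fold, and 1.46, or 2.76-fold, among the 4892. Smaller changes could thus go uncalled. Among the 4892 the median absolute difference was 0.101, for 95% of them it was at most 0.344, and 1 differed by 2-fold or more, a probe set of the phosphatase subunit PPP4C with overlapping groups. Over all probe sets 33 (0.248%) differed by 2-fold or more.

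The same fit made many calls elsewhere, which gives the count a scale. Luciferase siRNA by nucleofection against the same untransfected arrays had 650 calls (4.88%), 225 higher (1.69%) and 425 lower (3.19%). Luciferase by lipid against luciferase by nucleofection, the test of the difference itself, had 1126 (8.45%), 861 higher (6.46%) and 265 lower (1.99%). AML1-ETO siRNA by lipid against untransfected cells had 9 (0.0675%), 8 higher (0.06%) and 1 lower (0.0075%). Among the 131 lineage genes tested, 0 were called with lipid, 21 with nucleofection (16.0%) and 26 between the methods (19.9%). The receptor class had 0, 14 and 12 calls of 147 genes, and the metabolic class 0, 13 and 28 of 267. The siRNA dose and the number of arrays differ between the methods, and the comparisons share the untransfected or the lipid arrays. The control probe sets for ribosomal RNA read a geometric mean of 120 to 1246 on the 6 nucleofection arrays, 35.5 to 71.2 on the 6 lipid arrays and 54.9 and 76.3 on the untransfected arrays, and their part in the counts was not tested. With the replicate block the counts were 190, 625 and 4, and with the scale factor as a covariate the first 2 were 141 and 364. The counts depend on single arrays: the first fell to 34 without untransfected replicate 1 and to 107 without replicate 3, the second to 439 to 561 without 1 luciferase lipid array, and the third was 0 without untransfected replicate 3, 5 without luciferase lipid replicate 3 and 15 without luciferase lipid replicate 1.

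**Figure D5:**
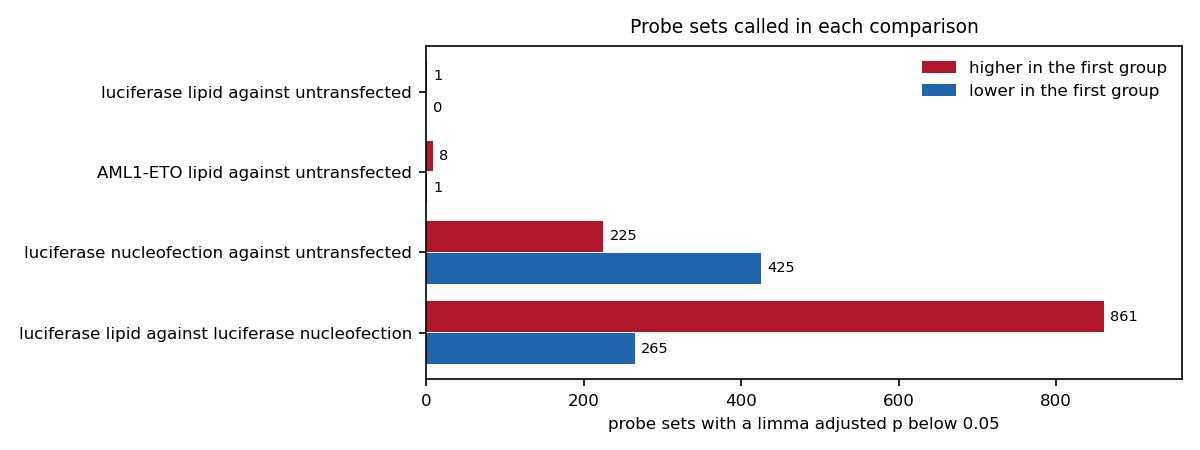
Number of probe sets with a limma adjusted p below 0.05 in 4 comparisons, of 13329 tested in each; red bars are higher and blue bars lower in the first group named. The bars of luciferase lipid against untransfected, 1 and 0, are barely visible beside 225 and 425 for nucleofection.

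Without adjustment, 486 probe sets (3.65%) had a p below 0.05, of which 406 (3.05%) were higher and 80 (0.6%) lower with lipid. Arrays that did not overlap were found for 1884 probe sets on the higher side (14.1%) and 618 on the lower side (4.64%). This lean depended on the scaling. After quantile normalization the unadjusted numbers were 189 higher and 181 lower, and after centring each array on its median 185 and 233, with ATN1 the call in both. The lean followed signal: the median difference was 0.11 for probe sets with a geometric mean under 100, 0.05 from 100 to 1000 and -0.05 at 1000 or more, and 0.00, -0.06 and -0.16 after median centring. Quantile normalization, which makes the distributions of all arrays equal, gave 0.00 in all 3 ranges. The median signal of an array was 30.5, 29.8 and 28.0 with lipid and 26.0 and 27.5 without transfection, so that it separated the groups, as did the 3′ to 5′ ratios of GAPDH and ACTB given above. The shares of signals under the floor overlapped. The part of these measures in the lean was not tested.

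The largest uncalled differences are given as values, among probe sets with a signal of at least 100 whose groups did not overlap. Lack of overlap was thus the rule by which they were chosen and not a result. FAHD2A, a hydrolase family member, gave 118, 112 and 101 on the lipid arrays and 56.5 and 46.8 on the untransfected arrays at 222056_s_at, a log2 difference of 1.10 (95% interval 0.48 to 1.72). Its second probe set differed by 0.02. CYP3A4, a drug-metabolizing cytochrome, gave 106, 103 and 126 with lipid and 29.2 and 96.1 without transfection, a difference of 1.07 (95% interval 0.32 to 1.82), and the untransfected arrays disagreed. Without untransfected replicate 1 the difference was 0.21, and without untransfected replicate 3 it was 1.93 and was called (limma adjusted p = 0.0125). Its other 3 probe sets were under the floor on all 5 arrays.

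CAPRIN1, an RNA-binding protein of stress granules, gave 252, 329 and 260.4 with lipid and 184 and 158 without transfection, a difference of 0.71 (95% interval 0.15 to 1.27), and a second probe set was also higher on every lipid array, by 0.33. HMGA1, RAB35, PAXBP1 and the EIF5B probe set 201027_s_at differed by 0.66, 0.64, 0.64 and 0.62. A second PAXBP1 probe set was -0.38 and a second HMGA1 probe set 0.35, both with overlapping groups, and the second RAB35 probe set was under the floor on all 5 arrays. EIF5B, a translation initiation factor, had another probe set, 201024_x_at, among those lower with lipid (-0.55), so that its probe sets pointed opposite ways.

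On the lower side, the transcription factor USF2 gave 48.3, 51.9 and 80.4 on the lipid arrays and 106 and 130.0 on the untransfected arrays, a difference of -0.998 (95% interval -1.93 to -0.06). A second USF2 probe set was -0.82, also without overlap, and the remaining one was 0.23, so that its 3 probe sets disagree. TRIM14, an adaptor of antiviral signalling, gave 238, 136 and 109 with lipid and 242 and 277 without transfection (-0.77), while its other 3 probe sets overlapped between the groups and differed by -0.14, -0.08 and -0.01. PHKA2, FTSJ1, SDHA, RPL37A and DCAF8 had probe sets lower by -0.55, -0.52, -0.49, -0.49 and -0.48, and for PHKA2, FTSJ1, RPL37A and DCAF8 another probe set had overlapping groups. The limma adjusted p of the 15 uncalled probe sets was between 0.964 and 1.

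None of the 45 lists had a called member, and 0 of the 8130 genes tested at their brightest probe set were called. Over these the median difference was 0.07, with 14.3% fully higher and 4.75% fully lower with lipid. The direction of a list's median followed the scaling: 39 of the 45 medians were above 0 at the deposited scaling, 24 after quantile normalization and 10 after median centring. The azurophil granule list had a median of -0.13 over 13 genes, with 0 fully separate in either direction, and its median was below 0 under both other scalings (-0.12 after quantile normalization and -0.23 after median centring). ELANE, whose values are given above, had its smallest p, with a difference of -0.25 (95% interval -0.65 to 0.14). The stem and progenitor factors had a median of 0.05, and FLI1, an ETS factor, gave 273, 355 and 351.2 on the lipid arrays and 242 and 202 on the untransfected arrays, a difference of 0.55 (95% interval 0.04 to 1.06) that was not called. MYB was fully higher too, by 0.28 (95% interval -0.15 to 0.71), and likewise not called.

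Receptors with the smallest p-values were dim ones. IL15RA gave 11.5, 11.5 and 42.4 with lipid and 51.2 and 63.9 without transfection (-1.15 (95% interval -1.94 to -0.37)), the neurotrophin receptor NTRK2 54.0, 45.2 and 38.6 with lipid and 25.8 and 23.4 without transfection (0.89 (95% interval 0.37 to 1.41)) and the retinoic acid receptor RARB 57.7, 62.7 and 38.9 with lipid and 30.02 and 19.3 without transfection (1.09 (95% interval 0.43 to 1.74)). ERBB4 and TNFRSF10B both differed by 0.69. THRB, under the floor on both untransfected arrays, was higher by at least 0.81. Signals under the floor entered the fit as 20, so that the differences of IL15RA (2 lipid arrays under it) and RARB (1 untransfected array) are set in part by the floor. The limma adjusted p was 1 for all 6. Median differences of the 8 receptor lists ran from 0.07 for adhesion receptors and for pattern recognition receptors to 0.24 for the TGF-beta and TNF families.

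Of the metabolic lists, the respiratory chain had a median of -0.05, with 8 of 41 genes fully lower and 0 fully higher. NDUFA1 gave 574, 679.7 and 779 with lipid and 826 and 987 without transfection (-0.42 (95% interval -0.93 to 0.09)). Cytosolic ribosomal proteins had a median of -0.10, with 8 of 38 fully lower and 0 fully higher. Over all genes tested 4.75% were fully lower and 14.3% fully higher, but of the 259 with a geometric mean of 1000 or more 13.1% were fully lower and 1.93% fully higher, and 37 of the 38 ribosomal protein genes were bright. After quantile normalization the medians were -0.05 and -0.02, and after median centring -0.16 and -0.20. Neither list had a call. CPT1A, which admits fatty acids to mitochondria, gave 184, 188 and 223 on the lipid arrays and 143 and 128 on the untransfected arrays, a difference of 0.54 (95% interval 0.10 to 0.99) that was not called.

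Genes of the responses that lipid and siRNA can set off showed the same near-null picture. Of 26 measured interferon response genes 10 were at or under the floor on all 5 arrays (GBP1, IFI27, IFI44L, IFI6, IFIT1, ISG20, RSAD2, TRIM22, USP18 and XAF1) in transfected and untransfected cells alike. Of the 12 tested, 0 were called and the median difference was 0.12. The antiviral protein BST2 had the smallest p and was the lower one with lipid, 22.7, 28.7 and 42.8 with lipid and 53.3 and 56.3 without transfection (-0.85 (95% interval -1.33 to -0.37)), while IFIT2 gave 47.9, 53.8 and 41.3 with lipid and 40.4 and 13.3 without transfection (0.74 (95% interval 0.21 to 1.27)). Neither was called, and the IFIT2 difference is set in part by the floor, which 1 untransfected array was under.

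Median differences were 0.04 for 11 inflammatory genes, 0.10 for 14 immediate early genes, -0.03 for 16 unfolded protein and amino acid stress genes, 0.03 for 11 heat shock genes and 0.00 for 25 lysosomal genes, with 0 called in each. IL6, TNF, CCL2, CCL4, CXCL3, IL18 and PTGS2 were at or under the floor on all 5 arrays, while CXCL8 read 639.8 to 993. CDKN1A, the main p53 target that halts the cell cycle, was at or under the floor too. Of 9 genes of the RNA interference machinery, all over the floor, 0 were called, and AGO4 had the smallest p with 20.1, 24.4 and 29.9 with lipid and 33.6 and 39.5 without transfection (-0.57 (95% interval -1.04 to -0.11)). DICER1 read 115 to 244 and DROSHA 101 to 126.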

How the data were processed

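RNA of 14 samples was measured on single-colour arrays. Per the submitters' processing notes the authors used MAS5, and the deposited values are intensities on a linear scale; MAS5's version and settings are not given in the sources used here. The labels list 1 scale factor per array. Means are equal on all arrays, which hides any shift common to most genes.

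Names came from the platform annotation: 19065 probe sets had 1 symbol, 1043 several, 2107 none, and 68 were controls. R 4.3.3 with limma 3.58.1 (lmFit, eBayes) was fitted to log2 of the signal with a floor of 20, on the upper 60% of probe sets by mean; probe sets constant on all arrays were left out. This left 8 residual degrees of freedom. Benjamini-Hochberg adjustment ran over all 13329 tested. Steps were tested on simulated data. Python 3.11.15, pandas 2.3.3, numpy 2.4.6 and matplotlib 3.10.9 were used otherwise.

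The members and the 45 lists (979 of 1138 symbols measured) were chosen with earlier results of these data known. Named were the 15 brightest genes, the 5 brightest and up to 8 under-floor members per list, the called probe sets, the largest uncalled non-overlapping ones with a signal of at least 100, and up to 3 members per list by p. Further members in the text and plots, such as SPI1, CEBPA, FLT3, CSF2RB and SLC2A1, were chosen after their values were seen. Leaving out 1 array always means 1 of the 5. Alternatives changed floor, filter, scaling, features, variance model, covariates and arrays.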

Additional observations from a re-analysis of the deposited data

Results flagged for a closer look

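The 12 control probe sets for ribosomal RNA, which enter no comparison, read a geometric mean of 1246 on nucleofection without siRNA replicate 1. They read 36.6 to 70.4 on the luciferase lipid arrays, 54.9 and 76.3 on the untransfected arrays, and 120 to 1246 over the 6 nucleofection arrays. The lipid and untransfected ranges overlap.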

How the results depend on the processing

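The number of calls between luciferase lipid and untransfected arrays was 2 with a floor of 10 (ATN1 and CASP10) and 0 with a floor of 64, on the upper 40% of probe sets, with 1 probe set per gene, and on the 5 arrays alone. The called ATN1 probe set does not enter the fits with the upper 40% or with 1 probe set per gene. Leaving out 1 array gave 0 to 2: without untransfected replicate 1 the smallest adjusted p was 0.0771, and without untransfected replicate 3 CYP3A4 was called beside ATN1. On the 5 arrays alone the smallest adjusted p was 0.585. ATN1 kept its direction in all 16 alternatives that tested it, with differences from 0.04 (floor of 64) to 1.84, and lost its call in 3. Correlations of same-numbered deviations from the group means were -0.095 and -0.013, with 2 shared numbers. The deviations of the 2 untransfected arrays mirror each other, so that each correlation with 1 of them is the negative of that with the other. These values cannot decide whether arrays of the same number belong together. With the replicate block the number of calls was still 1 (ATN1, limma adjusted p = 0.0227).

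Nucleofection against untransfected arrays gave 369 calls with 1 probe set per gene, 141 with the scale factor as a covariate, 190 with the replicate block and 34 to 574 leaving out 1 array. Lipid against nucleofection gave 586, 364, 625 and 439 to 1012. AML1-ETO lipid against untransfected arrays gave 5 with a floor of 10, 4 without a filter, 19 with an intensity trend, 4 with the replicate block and 0 to 15 leaving out 1 array. The causes were not tested. Genes at or under the floor on all 5 arrays numbered 1575 with a floor of 10, 6835 with 64 and 2932 to 3101 leaving out 1 array. Bright genes numbered 517 with a limit of 500, 96 with 2000 and 229 to 236 leaving out 1 array. Of the values for single named probe sets, 274 kept direction and side of the threshold, 1 gained a call and 3 lost one. The median difference of a list moved by less than a set limit in 737 of the cases and by that limit or more in 73. The limit was the SD of the list's median log2 signal over the 3 luciferase lipid arrays, which is not the error of the difference. With 2 untransfected arrays, a probe set of median error would have needed a 3.35-fold difference to be the single call.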

Other observations

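Nearly all listed genes of proliferation were over the floor in both groups. All 30 DNA replication and S phase genes lay over the floor on all 5 arrays, with the replication licensing factors MCM2 (1078 to 1339), MCM7 (649 to 828) and MCM6 (602 to 799) among the highest, and so did 25 of 26 mitosis genes, led by CDK1 (524 to 683), BUB3 (528 to 639.7) and CCNB2 (335 to 457). Median differences between lipid and untransfected arrays were 0.01 and 0.02, with 0 called. POLD1, a catalytic subunit of DNA polymerase delta, gave 106, 139 and 127 with lipid and 162 and 176 without transfection (-0.45 (95% interval -0.83 to -0.08)), and the centromere motor CENPE 52.6, 51.4 and 49.8 with lipid and 83.7 and 68.0 without transfection (-0.56 (95% interval -1.09 to -0.02)), lower on every lipid array but not called. Some chaperones were bright in both groups: HSP90AB1 read 3847 to 4190.4, HSPD1 3591 to 4043 and the endoplasmic reticulum chaperone CANX 1369 to 1737. In the lists, 3 of 11 heat shock genes and 2 of 17 unfolded protein and amino acid stress genes were bright. Lysosomal PSAP read 1466 to 1855 and LAMP1 977 to 1185.

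A few genes of moderate signal were unsteady within a group. PPP4C, a phosphatase subunit, gave 115, 142 and 149.99 with lipid and 144 and 31.1 without transfection, the one gene of 3231 with a ratio of highest to lowest of 4 or more (4.82), through a single untransfected array. HSPE1, a mitochondrial chaperonin, gave 545, 985 and 1477 with lipid and 1155 and 1081 without transfection, a spread among the lipid arrays themselves. IARS2, ALCAM and LSM1 had ratios of 2.82, 2.76 and 2.58.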
